A study of Caenorhabditis elegans with 2 samples.

Results

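Histone-modifying enzyme genes were examined for binding of the homeodomain protein DVE-1 in Caenorhabditis elegans, a nematode, at the late embryonic stage. Members were the protein-coding genes whose name is set-, jmjd-, hda-, lsd-, hat-, mys-, utx- or kdm- with a number, or sir-2. with a number, in Ensembl release 115. The genes jmjd-1.2, jmjd-3.1 and hda-1 were left out of this rule. It gave 54 genes of 19973 nuclear protein-coding genes. By name, 31 were set- genes, here called the methyltransferase class, 8 were demethylases (jmjd-, utx- and lsd-) and 15 were acetyl enzymes, namely the hda- and sir-2. deacetylases and the hat- and mys- acetyltransferases. No gene was named kdm-. The classes follow names and not measured activity, the demethylase class included, and several set- genes have no activity that is stated here.

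Chromatin immunoprecipitation and sequencing was done on whole hermaphrodites of strain OP398, which carries the integrated transgene wgIs398, with DVE-1 fused at its C terminus to GFP and FLAG, in the unc-119(tm4063) III mutant background. An antibody against GFP was used after sonication. There was 1 group with 2 biological replicates of this single line, so no test between conditions exists, and p-values are not given. The age of the animals is labelled unknown. The peak lists hold no read totals and no expression values, so depth is unknown and the stage could not be checked against marker genes. Untagged animals were not analysed here.

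Many enzymes of these families add or remove methyl and acetyl groups on histone tails. Many SET domain enzymes methylate lysines, many JmjC and amine oxidase enzymes remove the methyl groups, and many acetyltransferases and deacetylases or sirtuins set the acetyl groups. Whether each gene counted here has such an activity was not examined. In C. elegans, DVE-1 acts when mitochondrial proteins misfold, a state in which chaperone genes are induced, and histone methylation and acetylation are known to bear on that induction. The question here was which of the enzyme genes had a DVE-1-GFP summit, the point of strongest enrichment in a peak, near their 5′ end.

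A DVE-1-GFP summit of the authors' thresholded list lay in the promoter window of 6 of the 54 genes. They were set-16, set-21, set-26 and set-20 of the methyltransferase class, jmjd-4 of the demethylases and hat-1 of the acetyl enzymes. The window began 1000 bp before the gene's 5′ end in Ensembl and stopped 200 bp inside the gene. The list was the authors' list of 1447 peaks thresholded by IDR, a measure of reproducibility between replicates. Those 1447 were the strongest of the 30000 peaks listed for both replicates together. Being listed therefore does not by itself show that a peak was found in each replicate. The share was 11.1% of the enzyme genes, against 4.33% of all nuclear protein-coding genes (865 of 19973). By class it was 4 of 31 methyltransferase genes (12.9%), 1 of 8 demethylase genes (12.5%) and 1 of 15 acetyl enzyme genes (6.67%). A summit at 4 of the 6 genes was also in the window of a neighbouring gene. With each summit given only to the gene with the nearest 5′ end, 3 enzyme genes remained (5.56%), which were hat-1, jmjd-4 and set-20, against 635 of all genes (3.18%). Replicate 1's own list alone, cut to its 1447 strongest peaks, gave 5 genes (9.26%) and lacked hat-1, against 4.32% of all genes. The same cut of replicate 2's list gave 7 genes (13.0%), the 6 and set-4, against 4.16% of all genes. When listed peaks had to overlap a peak of both replicates by 1 bp, the same 6 enzyme genes remained. Of all genes, 855 remained in place of 865.

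The DNA at the 6 summits, with that of set-4, the next enzyme gene below the threshold, is shown because these sites carry the result. Each run spans 101 bases of the RefSeq sequence of WBcel235, the ce11 build, with the summit in the middle, read 5′ to 3′ in the direction of the enzyme gene. They lie at chrIII:13643671-13643771 (plus strand) for set-16, chrIII:10407400-10407500 (minus strand) for hat-1, chrIV:4390593-4390693 (plus strand) for set-21, chrIV:16656390-16656490 (minus strand) for set-26, chrX:5686183-5686283 (minus strand) for set-20, chrIII:10334088-10334188 (minus strand) for jmjd-4 and chrII:6331534-6331634 (minus strand) for set-4. None of the 7 runs overlaps an annotated exon. Capitals mark matches on either strand to a listed motif or to the spaced pair of half-sites described after them.
set-16: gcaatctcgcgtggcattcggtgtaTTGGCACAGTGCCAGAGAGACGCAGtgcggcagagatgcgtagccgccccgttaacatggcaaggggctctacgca
hat-1: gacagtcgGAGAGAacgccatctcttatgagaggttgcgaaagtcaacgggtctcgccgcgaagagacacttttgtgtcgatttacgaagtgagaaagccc
set-21: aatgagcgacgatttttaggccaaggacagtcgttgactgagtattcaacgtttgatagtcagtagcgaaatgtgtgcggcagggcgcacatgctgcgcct
set-26: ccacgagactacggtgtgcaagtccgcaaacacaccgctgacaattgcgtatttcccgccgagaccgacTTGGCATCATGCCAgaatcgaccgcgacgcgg
set-20: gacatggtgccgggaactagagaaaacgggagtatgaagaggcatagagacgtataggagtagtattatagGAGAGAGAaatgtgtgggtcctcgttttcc
jmjd-4: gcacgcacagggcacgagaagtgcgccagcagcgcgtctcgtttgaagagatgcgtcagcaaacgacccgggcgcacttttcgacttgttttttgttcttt
set-4: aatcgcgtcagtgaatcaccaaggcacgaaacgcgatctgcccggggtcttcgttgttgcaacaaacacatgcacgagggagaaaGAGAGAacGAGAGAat

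The motif search covered 9 motifs on both strands in 201 bp windows at the summits, each spelled out with its share of the 639 windows at thresholded summits in a promoter window. GAGAGA was found at set-16, hat-1 and set-20, which is 3 of the 6 summits, and in 35.8% of these windows (229), and it was also found at set-4. CTGCGTCT was found at set-16 alone of the 6, where it overlaps the GAGAGA match, and in 14.9% of the promoter windows. TAATTA, a core often bound by homeodomain proteins, was found at jmjd-4, outside the printed bases, and in 3.44% of the promoter windows. The other 6 motifs were at none of the 6 summits. In the promoter windows GATAAG was in 6.89%, CACGTG in 5.16%, TGACGTCA in 1.1%, a pair of TTAGGC units in a row in 5.95%, ATTTGCAT in 1.41% and GAAGAAGA in 3.29%. The pair TTGGC and GCCA with 5 bases between them, which was searched for only after the sequences had been seen, occurred at set-16 and set-26, and in 24 of the 1440 nuclear thresholded windows (1.67%) and 19 of the 639 promoter windows (2.97%). A match describes letters and not a bound site.

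GC content of the 201 bp windows was 49.3% at set-16, 47.8% at hat-1, 43.8% at set-21, 48.8% at set-26, 50.2% at set-20 and 42.8% at jmjd-4. The median over 639 promoter summits was 44.8%, with quartiles of 39.8% and 48.8%, so set-16 and set-20 lay above the upper quartile and the other windows at or below it. Every stretch of 50 bases in these 6 windows occurred once in the genome. That includes the window of set-26, whose closest relative set-9 had no pooled summit in its window. Among all promoter summits, 42 of 639 had under 90% such unique stretches.

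**Figure D1:**
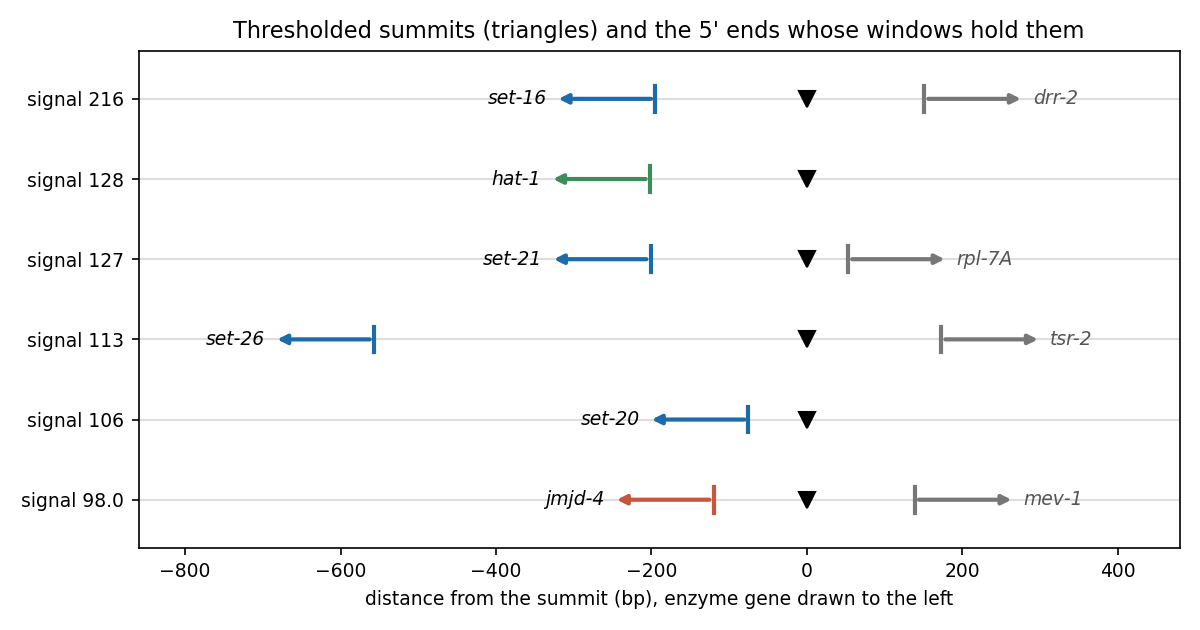
Each row shows 1 thresholded summit (triangle at 0 bp) with the 5′ end and reading direction of the enzyme gene on the left and of any other gene whose window holds the same summit on the right, in bp from the summit. At set-16, set-21 and set-26 the 5′ end of the other gene is closer to the summit than that of the enzyme gene.

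The strongest summit belonged to set-16, an MLL-type gene for methylation of lysine on histone H3. Its signal, the authors' enrichment value for the peak, was 216 at rank 112 of 1447, 195 bp upstream of the gene (set-16, WBGene00011729, chromosome III, 13643916 to 13656637, plus strand). In the replicates' own lists the overlapping peak had signal 111 at rank 64 in replicate 1 and 113 at rank 186 in replicate 2. It was the highest placed of the 6 in both replicates. The summit was intergenic and 151 bp upstream of the divergent gene drr-2, a relative of the translation initiation factor eIF4H. The 5′ ends of the pair are 346 bp apart, so a single peak served both windows.

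The summit of set-21, a SET domain gene, had signal 127 at rank 513 and lay 201 bp upstream (WBGene00021282, chromosome IV, 4390844 to 4393406, plus strand). Its peak had signal 55.0 at rank 486 in replicate 1 and 67.8 at rank 713 in replicate 2. It was 53 bp upstream of rpl-7A, a divergent gene for a protein of the large ribosomal subunit, and the 5′ ends are 254 bp apart. The rpl-7A end is thus the nearer one.

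The summit of set-26, a gene for a protein with PHD and SET domains, had signal 113 at rank 685 (WBGene00013106, chromosome IV, 16646791 to 16655883, minus strand). Its peak had signal 52.0 at rank 563 in replicate 1 and 58.0 at rank 962 in replicate 2. At 557 bp upstream it was the most distant of the 6, and it was 173 bp upstream of the divergent gene tsr-2. With the narrower window of 500 bp upstream to 100 bp downstream, set-26 was the 1 gene lost. That left 5 of 54 enzyme genes (9.26%), against 3.29% of all genes.

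The summit of set-20, another SET domain gene, had signal 106 at rank 802 and lay 75 bp upstream, the closest of the 6 (WBGene00020920, chromosome X, 5680330 to 5686158, minus strand). Its peak had signal 44.4 at rank 827 in replicate 1 and 64.9 at rank 778 in replicate 2, so it was placed alike in both lists. No other window held it. The pooled list, which holds peaks before thresholding, had a second summit 277 bp upstream with signal 41.5. The neighbour set-19, which lies next to set-20 on the same strand, had no pooled summit.

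The summit of jmjd-4, a JmjC domain gene, had signal 98.0 at rank 932 and lay 120 bp upstream (WBGene00011563, chromosome III, 10332526 to 10334018, minus strand). Its peak had signal 43.3 at rank 872 in replicate 1 and 50.4 at rank 1299 in replicate 2. It was 139 bp upstream of the divergent gene mev-1, which encodes the cytochrome b subunit of respiratory complex II, with 5′ ends 259 bp apart. The summit was thus near the middle of the gap between the genes.

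The summit of hat-1, a type B histone acetyltransferase that acts on newly made histone H4, had signal 128 at rank 496 and lay 202 bp upstream (WBGene00044069, chromosome III, 10405248 to 10407248, minus strand). Its peak had signal 31.6 at rank 1850 in replicate 1 and 93.3 at rank 314 in replicate 2. It was among the 1447 strongest peaks of replicate 2 and not of replicate 1. The other 5 genes were among them in both. The summit lay in an intron of M03C11.3, a protein-coding gene, and no other promoter window held it. A second, weaker pooled summit lay 404 bp upstream with signal 32.7.

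**Figure D2:**
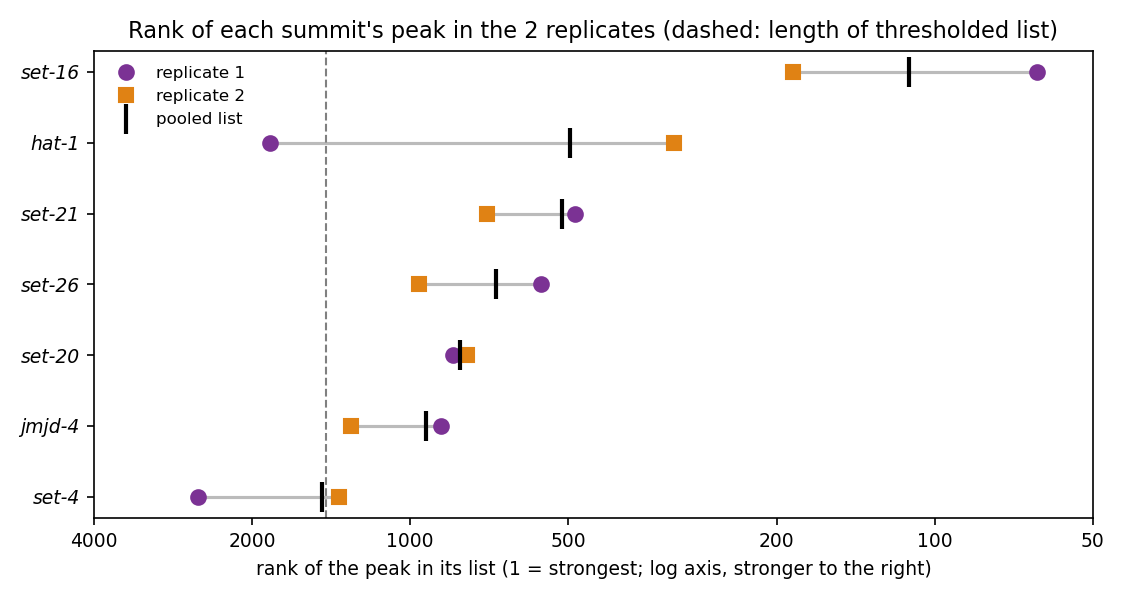
Rank (log axis, stronger to the right) of the peak at each of the 6 thresholded summits and at set-4, in the lists of replicate 1 (circles), replicate 2 (squares) and both together (bars); the dashed line is the length of the thresholded list, 1447. Only hat-1 and set-4 lie beyond the line in replicate 1, and no gene does in replicate 2.

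Across the 6 genes the distance from summit to 5′ end ran from 75 to 557 bp upstream, with a median of 198 bp. Over the 872 pairs of a gene and a thresholded summit in its window, the median was 265 bp and the quartiles were 152 and 475 bp. The median signal of the 6 summits was 120, against 108 over the 639 summits in a promoter window. Of the 6 summits, 4 were in the windows of 2 genes, against 216 of the 639 promoter summits (33.8%) in 2 or more windows. All 4 lay between divergent genes, and how many of the 216 did so was not counted. Whether these values differ was not tested. No tRNA, snoRNA or other non-coding gene lay within 200 bp of any of the 6. The same count was not made over the 639 promoter summits.

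Below the threshold, the pooled list of 30000 peaks and background regions placed a summit in the windows of 31 of 54 enzyme genes (57.4%), against 41.5% of all genes (8286 of 19973). At rank 5000 or better the counts were 11 of 54 (20.4%), against 13.2% of all genes. At rank 10000 they were 17 of 54 (31.5%), against 21.1%, and at rank 20000 27 of 54 (50%), against 32.0%. The strongest pooled summit was found in both replicates' own lists for 15 of the 31 genes (48.4%) and for 38.2% of all genes with a pooled summit. It was in 1 replicate for 9 genes and in neither for 7, so about as many lacked a match in one or both replicates as had it in both. With the list of replicate 2 alone 16 enzyme genes had a summit (29.6%), against 26.8% of all genes. With that of replicate 1 alone 22 had one (40.7%), against 22.5% of all genes.

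**Figure D3:**
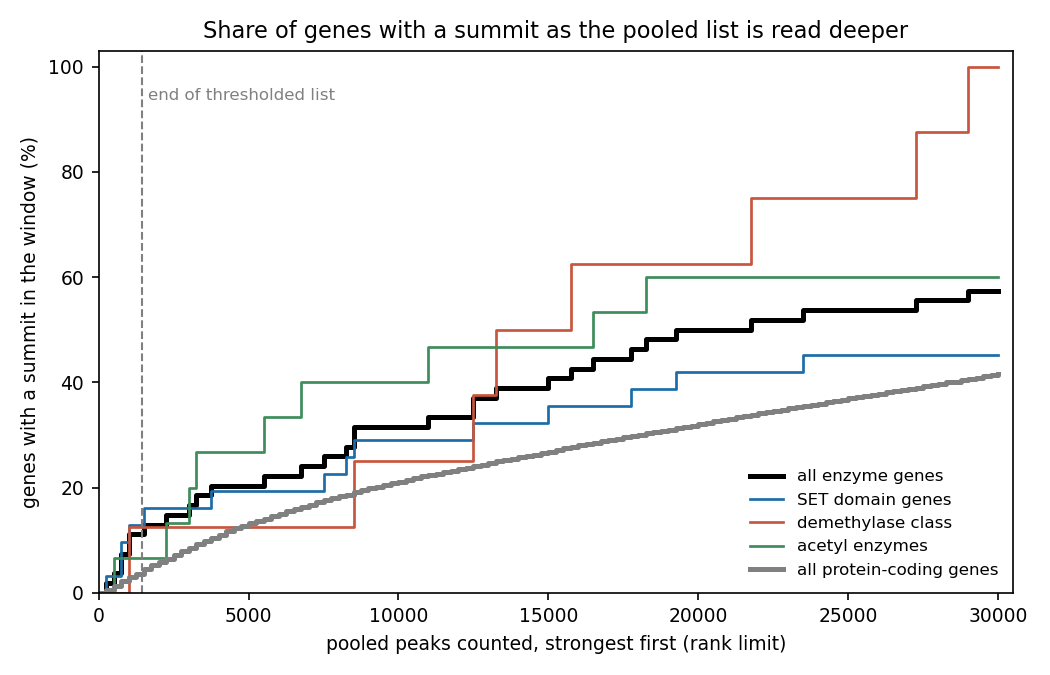
Percent of genes with a summit in the promoter window (vertical axis) as pooled peaks are counted from the strongest down to the rank on the horizontal axis, for all 54 enzyme genes, the 3 classes and all 19973 protein-coding genes. The demethylase line is at 12.5% from the thresholded list to rank 5000 and reaches 100% only at the end of the list.

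Among methyltransferase genes, set-4 stood just below the threshold. It encodes the enzyme for di- and trimethylation of lysine on histone H4. Its summit had signal 78.2 at pooled rank 1474, 243 bp upstream, where the lowest thresholded signal was 78.9, and jmjd-4 at 98.0 was the enzyme gene just inside. Its peak had signal 27.4 at rank 2540 in replicate 1 and 49.1 at rank 1369 in replicate 2. No other window held it.

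The next in this class were set-6 with signal 50.4 (rank 3507), set-10 with 35.8 (rank 7488) and set-17, a gene for H3 methylation in male germ cells, with 34.8 (rank 8020). T21B10.4 shares the set-17 summit, and the set-10 summit lies 674 bp upstream in an exon of F33H2.8. The other 6 with a pooled summit (set-2, set-3, set-13, set-15, set-23 and set-24) had signals from 21.9 for set-23 to 34.1 for set-3. They include set-2, the SET1-type enzyme of the COMPASS complex, with 24.0 at rank 19219. No pooled summit was in the windows of 17 genes: set-1, set-5, set-8, set-9, set-11, set-12, set-14, set-18, set-19, set-22, set-25, set-27, set-28, set-29, set-30, set-31 and set-32. Among these, set-1 adds the first methyl group to a lysine of H4, and set-25 methylates H3 in silent chromatin. The pooled share of the class was 14 of 31 (45.2%), near the background of 41.5%.

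Every one of the 8 demethylase genes had a pooled summit, against 41.5% of all genes, but most were weak. After jmjd-4 came jmjd-2, for methyl groups on H3, with signal 34.2 (rank 8363, 230 bp upstream), utx-1, for H3 lysine methylation of Polycomb type, with 28.9 (rank 12489), lsd-1, an amine oxidase, with 28.2 (rank 13147) and jmjd-3.3 with 26.2 (rank 15729). The remaining 3 had 22.7 (jmjd-5), 20.1 (jmjd-1.1) and 19.4 (jmjd-3.2), where the lowest signal over all genes' strongest summits was 19.1. Of the 8, only the jmjd-4 summit was found in both replicates (12.5%), against 38.2% over all genes with a pooled summit. Those of jmjd-2, lsd-1 and jmjd-3.3 were in replicate 1 alone, that of utx-1 in replicate 2 alone, and those of jmjd-5, jmjd-1.1 and jmjd-3.2 in neither. The count of 8 of 8 thus includes 7 genes whose summit was missing from one or both replicates' lists.

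Among acetyl enzymes, 9 of 15 had a pooled summit (60.0%), against 41.5% of all genes. Of these, 6 were in both replicates (66.7%), against 38.2% of all genes with a pooled summit. After hat-1 came hda-11, a deacetylase gene, with signal 64.5 at rank 2173 and 60 bp upstream. Its peak had 20.8 in replicate 1 and 42.8 in replicate 2, and C35A5.8 shares its summit. The mitochondrial sirtuin gene sir-2.3 had 54.7 at rank 2990, with 24.1 in replicate 1 and 32.0 in replicate 2, but this summit lies in an intron of its upstream neighbour sir-2.2. The MYST acetyltransferase gene mys-1 had 54.4 at rank 3026, with 32.8 in replicate 1 and 22.7 in replicate 2. The deacetylase gene hda-6 had 41.2 at rank 5414 and shares the summit with F41H10.4.

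Signals of the other 4 were 37.6 for sir-2.1, the best known sirtuin of the worm, 30.5 for sir-2.2, 25.7 for sir-2.4 and 24.7 for hda-4. The sir-2.1 summit was in an exon of pges-2 and was found in both replicates at ranks 8077 and 10920. No pooled summit was in the windows of hda-2, hda-3, hda-5, hda-10, mys-2 and mys-4. The acetyltransferases with a pooled summit were therefore hat-1 and mys-1, of 4 in the list, where 41.5% of all genes had a pooled summit.

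**Figure D4:**
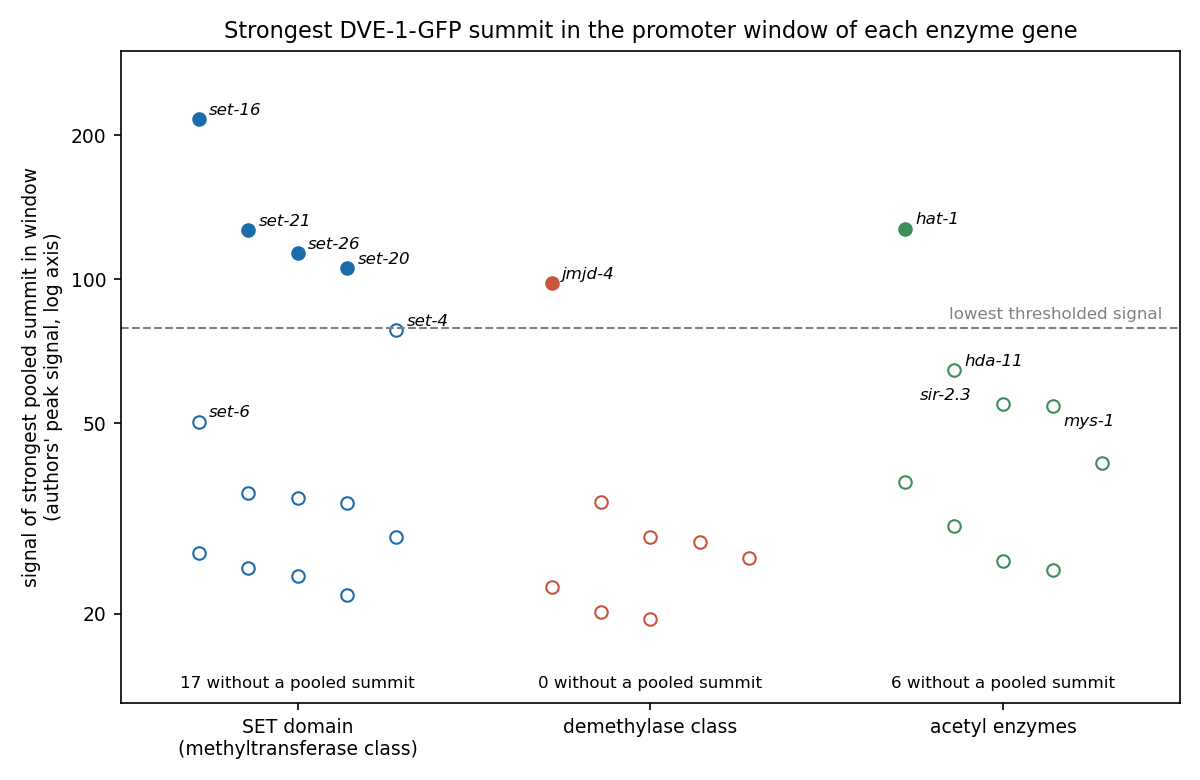
Signal of the strongest pooled summit (log axis) in the promoter window of each of the 31 enzyme genes that had one, by class; filled points are in the thresholded list, the dashed line is its lowest signal, 78.9, and the number of genes without a pooled summit stands under each class. The 6 filled points run from 98.0 (jmjd-4) to 216 (set-16), and set-4 sits just under the line.

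Inside the genes but outside the windows, 2 enzyme genes on chromosome I held thresholded summits. The same count was not made over all genes, so this count has no background beside it. In set-29 there were 2, in an intron 6028 and 6233 bp from the 5′ end, with signals 132 and 98.3. In each replicate the strongest peak overlapping them was the same for both, with signal 71.5 in replicate 1 and 62.0 in replicate 2. Whether weaker peaks of the replicates' lists separate them was not examined. In set-18, related to the SMYD enzymes of muscle, a summit with signal 112 lay in an intron 2456 bp from the 5′ end, within a tRNA gene and the ncRNA gene T22A3.11. Only 77.6% of the 50-base stretches in its window were unique in the genome, against 100% at the 6 promoter summits.

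Other genes of histone modification were taken from a list of 45 that was drawn up here from knowledge of the genes and used whole. The list covers 18 writers, 6 erasers and 21 subunits of their complexes. It has 42 genes with other names and the 3 genes left out of the rule, jmjd-1.2, jmjd-3.1 and hda-1. Beside the 6 of 54 enzyme genes, 5 of these 45 had a thresholded summit (11.1%), against 4.33% of all genes. They were cbp-1, a CBP/p300-type acetyltransferase (signal 202), lin-53, a histone-binding subunit (114, shared with nra-2), jmjd-1.2, a demethylase (100.6, shared with F29B9.11), mes-2, the Polycomb-type methyltransferase (96.2), and epc-1, a subunit of acetyltransferase complexes (85.0, shared with Y111B2A.12). For cbp-1 the peak had signal 74.2 at rank 200 in replicate 1 and 130 at rank 120 in replicate 2, and its pooled signal was the highest of the 45. Its summit lay 920 bp from the 5′ end. With the window of 500 bp upstream to 100 bp downstream cbp-1 was lost, leaving 4 of the 45 (8.89%), against 3.29% of all genes. Neither met-2 nor spr-5 had a thresholded summit: met-2, for H3 methylation, had a pooled signal of 35.7 at rank 7515, and spr-5, an amine oxidase gene related to lsd-1, had no pooled summit. The gene hda-1 had a pooled summit with signal 49.8 at rank 3607, and jmjd-3.1 one with 20.3 at rank 26693. At rank 5000 or better, 20.4% of the enzyme genes had a pooled summit, against 35.6% of this list (16 of 45) and 13.2% of all genes.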

How the data were processed

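The authors derived 4 ce11 peak lists, per the README texts they deposited: 1 per replicate and 1 on the alignments of both replicates, all against the same control alignment, and from these 1 thresholded by IDR. Which aligner and peak caller made them, and with which IDR cutoff, is not given in the sources used here. Values used were the signal per peak and the summit offset in bp, as deposited. All 1447 thresholded peaks were the strongest of the 30000 pooled peaks. The lists of replicates 1 and 2 hold 11568 and 15750 peaks. The ce10 lists were not used.

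The summit was the peak start plus the offset. Ensembl release 115 gene models and the RefSeq sequence of WBcel235, whose lengths hold every ce11 peak, gave positions and bases. A replicate peak matched a summit when it overlapped the peak by at least 1 bp. Python 3.11.15, numpy 2.4.6 and matplotlib 3.10.9 were used. The window code was checked on 200 placed summits, of which 200 were called as placed.

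The genes and lists were chosen with earlier results of these data known. Named genes are every enzyme gene with a thresholded summit, the 4 next strongest of each class, those with no pooled summit, and every listed other gene with a thresholded summit. Further genes, such as met-2, spr-5, hda-1, jmjd-3.1, sir-2.1 and set-2, were named after their values were seen. Alternatives were other windows, other 5′ ends, nearest gene, stricter overlap, stronger peaks and each replicate alone.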

Additional observations from a re-analysis of the deposited data

How the results depend on the processing

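The count of enzyme genes with a thresholded summit lay between 5 and 8 (9.26% to 14.8%) under the other windows, the 5′ ends of all transcripts, overlap by 1 bp or 50% in both replicates and each replicate alone, and was 4 (7.41%) above the median signal. Over all genes the shares were 3.29% and 6.19% with the narrower and wider windows and 4.7% with all transcripts. They were 4.28% and 4.26% with the 2 overlaps, 4.32% and 4.16% with replicates 1 and 2 alone, and 2.09% above the median signal. With only the nearest gene assigned, the count of enzyme genes moved by more than 1.5 times, to 3 (5.56%). That of methyltransferase genes did so too, to 1 (3.23%), while the share over all genes was 3.18%. Demethylase genes numbered 2 with the window of 2000 bp upstream to 500 bp downstream and 0 above the median signal. Acetyl enzyme genes ranged from 0 without replicate 2 to 1 without replicate 1. Enzyme genes with a pooled summit numbered 16 without replicate 1 and 22 without replicate 2, against 31 with both together. With the narrower window they numbered 23 (42.6%), against 28.8% of all genes, and with the wider one 40 (74.1%), against 57.3%. With only the nearest gene assigned they numbered 28 (51.9%), against 36.4%, and above the median signal 22 (40.7%), against 26.8%. Over all genes, peaks above the median signal gave 417 with a thresholded and 5355 with a pooled summit. In place of 8286 genes, 5343 had a summit without replicate 1 and 4492 without replicate 2. Of the 45 other genes, 2 had a summit above the median signal. These settings use fewer peaks, wider windows or fewer assignments, and the causes for single genes were not tested. In all, 57 of 68 recomputed counts were within 1.5 times the reported one. Depth is unknown, and with 2 libraries of 1 line the values describe these libraries.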

Other observations

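With the window of 2000 bp upstream to 500 bp downstream, 2 further enzyme genes had a thresholded summit, which makes 8 of 54 (14.8%), against 6.19% of all genes (1237). For set-1 it lay 1492 bp upstream with signal 154 at rank 302, second only to set-16 among the enzyme genes. For jmjd-2 it lay 1115 bp upstream with signal 95.99 at rank 972. Both were intergenic.

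By chromosome, the 6 genes with a thresholded summit in the main window were 3 of 8 enzyme genes on III, 2 of 7 on IV and 1 of 14 on X, and 0 of 8 on I, 0 of 11 on II and 0 of 6 on V. Over all protein-coding genes the shares were 6.44% on III, 3.96% on IV, 3.92% on X, 5.56% on I, 4.61% on II and 2.78% on V.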
